A study of Mus musculus with 10 samples.

Results

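The core circadian clock of the liver was followed through 10 genes: Arntl, Clock and Npas2, which encode the activators, Per1, Per2, Per3, Cry1 and Cry2, which encode the PER and CRY repressors, and Nr1d1 and Nr1d2, which encode the REV-ERB repressors. They were taken by gene symbol from a table of 17359 genes, and all 10 had a row. Of these, 9 passed the filter on low counts and could be tested, and Npas2 did not. Mice on a high-fat diet either ate freely (ad libitum, AL, n = 3 libraries) or went through a weekly cycle of calorie cuts: 50% on day 1, 70% on days 2 and 3 and 50% again on day 4, after which they ate freely up to day 7. Livers of cycled mice were taken on day 3, in the restricted phase (LC, n = 4), and on day 7, in the refeeding phase (RF, n = 3). The high-fat diet was shared by all 3 groups, controls included. Strain, age, sex, the number of cycles completed and the time of day and feeding state at collection were not stated in any source used here. For clock genes the time of day sets the level, so a difference in collection time between the groups and a difference in feeding cannot be told apart. Whether each library is a separate animal is not stated, and every p-value below rests on the spread among the libraries alone, which may be technical.

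BMAL1, the protein of Arntl, pairs with CLOCK or with NPAS2 and binds E-box elements in DNA, which turns on the Per, Cry and Nr1d genes. The PER and CRY proteins then enter the nucleus and block that pair, and the REV-ERB proteins, made from Nr1d1 and Nr1d2, sit on ROR elements and repress Arntl, which places Arntl in the opposite phase to the Nr1d genes over the day. In liver this loop drives daily rhythms of lipid, glucose and bile acid metabolism, and meal times can shift its phase apart from the brain clock.

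The elements through which the loop is wired can be read in some of the promoters. In RefSeq's promoter windows on the mouse build GRCm38.p6, from 250 bases before to 50 bases after a start site, 9 of the 10 genes had an entry. Per2 had none, so its promoter was not searched. The 3 stretches below are the 250 bases before the start site, 5′ to 3′ on the gene's strand, of the genes whose windows held more than 1 motif match. Per1 and Per3 were called higher in the restricted phase, and Cry1 was not. Nr1d2 was called higher too, and its window held no match. Whether the matches bear on these changes was not tested. Capitals mark the E-box CACGTG, the E′-box CACGTT (read as AACGTG on the other strand) and the D-box TTATGNAA.
Per1, chr11:69098699-69098948, plus strand: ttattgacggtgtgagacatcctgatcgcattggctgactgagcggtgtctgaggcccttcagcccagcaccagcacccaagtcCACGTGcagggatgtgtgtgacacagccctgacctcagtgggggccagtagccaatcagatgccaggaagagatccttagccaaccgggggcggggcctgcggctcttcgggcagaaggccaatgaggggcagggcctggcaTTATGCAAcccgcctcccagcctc
Per3, chr4:151044666-151044915, minus strand: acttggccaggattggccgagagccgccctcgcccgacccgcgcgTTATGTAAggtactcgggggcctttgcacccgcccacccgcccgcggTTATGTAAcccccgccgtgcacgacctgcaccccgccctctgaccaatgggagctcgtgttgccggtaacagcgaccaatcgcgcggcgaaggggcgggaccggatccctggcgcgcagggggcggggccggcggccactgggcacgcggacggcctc
Cry1, chr10:85185055-85185304, minus strand: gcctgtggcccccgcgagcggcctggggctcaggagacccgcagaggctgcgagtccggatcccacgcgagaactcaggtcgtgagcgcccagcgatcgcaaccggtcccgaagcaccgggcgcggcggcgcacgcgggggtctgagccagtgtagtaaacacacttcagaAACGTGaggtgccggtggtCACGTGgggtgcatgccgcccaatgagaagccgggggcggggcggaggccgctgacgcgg
The Per1 stretch lies before the first of its 2 annotated start sites. It held an E-box that began 166 bases before that site and a D-box that began 24 bases before it. The window of the second Per1 start site held no match. The Per3 stretch held 2 D-boxes, 205 and 158 bases before the start site. The Cry1 stretch held an E-box 60 bases before the start site and an E′-box 79 bases before it. Single matches are shown as 30 bases around the site, again on the gene's strand and with the match in capitals. The Arntl site is the ROR element TAGGTCA, 30 bases after the second of its 2 annotated start sites, and the other 2 are E′-boxes, 28 bases before the start site of Nr1d1 and 166 bases before that of Cry2.
Arntl, chr7:113207530-113207559, plus strand: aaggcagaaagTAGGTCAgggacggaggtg
Nr1d1, chr11:98775388-98775417, minus strand: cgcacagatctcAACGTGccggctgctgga
Cry2, chr2:92434218-92434247, minus strand: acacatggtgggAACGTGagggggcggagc
The windows of Clock, Npas2 and Nr1d2 held none of the 4 motifs. Both strands were searched, and no match overlapped another. Of all 32817 windows, 7.15% held the E-box, 4.69% the E′-box, 3.39% the D-box and 2.61% the ROR element. A match is a description of the letters in the window and not evidence of binding.

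Library totals lay between 13871533 and 15899479 counts, with no group apart. Levels are given as CPM, counts scaled to a common library size with TMM factors, and compared with the same gene only. A gene was called changed where edgeR's quasi-likelihood test gave a Benjamini-Hochberg adjusted p below 0.05 over the 12789 genes tested. Scaling by library totals alone shifted the median log2 difference of all genes from 0.048 to 0.36 at LC against AL and from -0.015 to -0.22 at RF against LC. That moved the split of called genes from 2045 higher and 1989 lower to 4395 higher and 686 lower at LC against AL, and from 1452 higher and 1369 lower to 673 higher and 2724 lower at RF against LC. Changes are therefore given relative to the bulk of the genes.

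In the restricted phase the Per genes and Nr1d2 were higher than in livers of freely fed mice, by 1.49-fold to 1.85-fold, and the activators, the Cry genes and Nr1d1 were not called. Of the 9 tested genes, 4 rose and none fell at LC against AL, where 31.5% of all genes tested were called (16% higher and 15.6% lower), and the 5 others did not pass. The count was 2 without AL replicate 3, without AL replicate 4 and without LC replicate 1, where Per2 and Per3 were the genes called. The same 4 genes were the ones whose LC libraries all lay above all AL libraries, and Clock was the 1 gene whose LC libraries all lay below, against 18.7% and 17.1% of all genes. The median log2 difference over the 9 genes was 0.18, beside 0.048 over all genes tested. On day 7, none of the 9 was called against AL, where 0.0547% of all genes tested were called. Against LC 3 were called, where 22.1% of all genes were. Per2 was the gene whose mean on day 7 lay nearest to that on day 3.

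**Figure D1:**
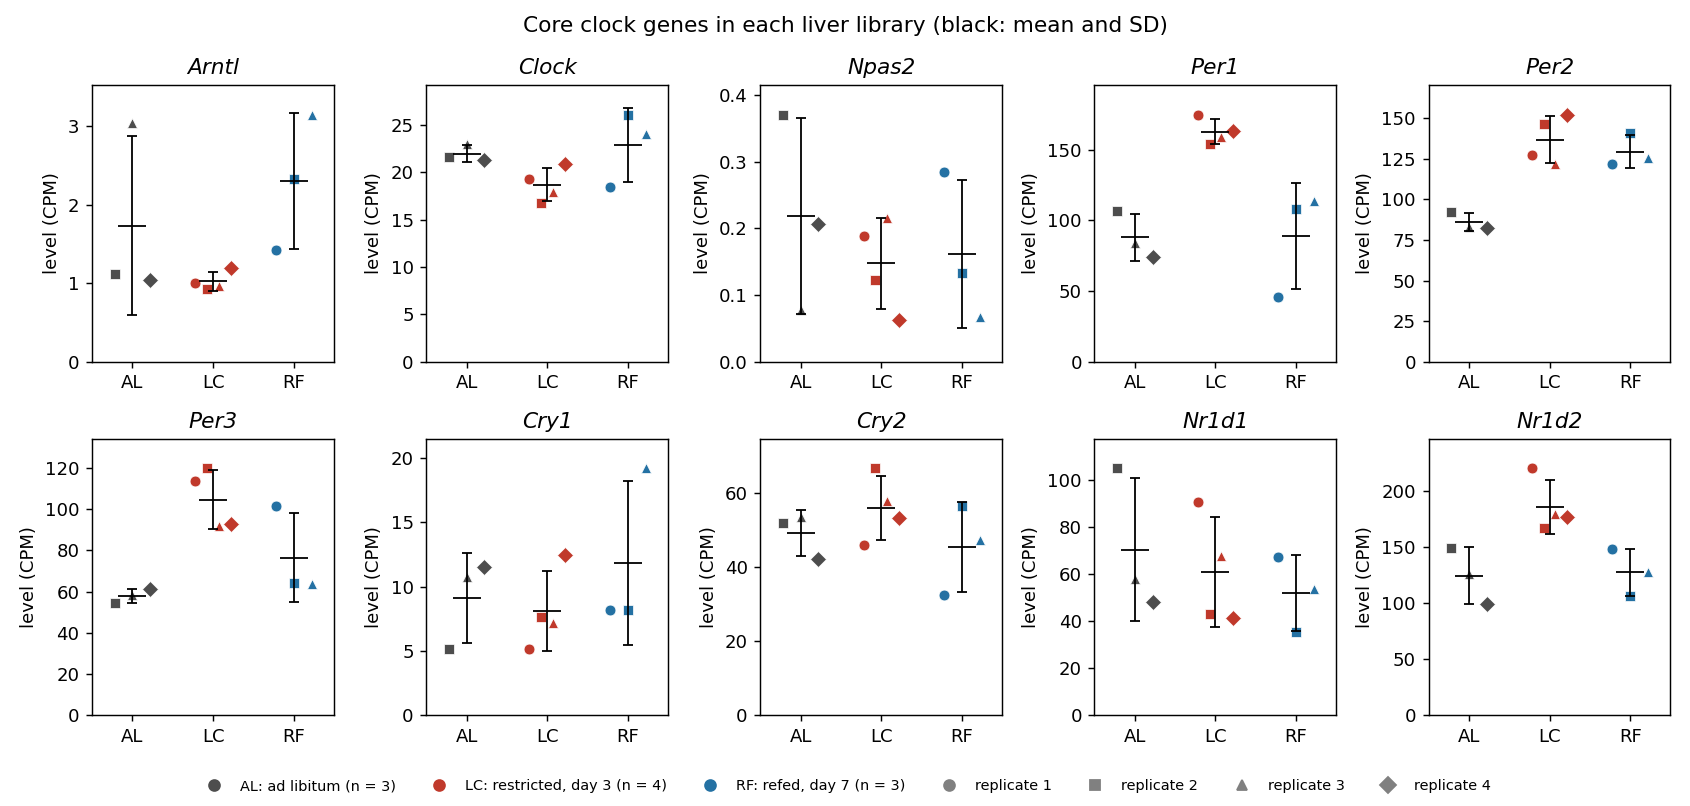
Level of each core clock gene (vertical axis, CPM from 0) in each library of the AL, LC and RF groups, with the replicate number shown by the marker shape and the group mean and SD in black. All 4 LC libraries of Per1, Per2, Per3 and Nr1d2 sit above the 3 AL libraries, the 3 RF libraries of Per2 do so too, and Npas2 stays under 0.4 CPM.

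Arntl was the more variable of the 2 activators that could be tested. Its level was 1.11, 3.04 and 1.03 CPM in AL replicates 2, 3 and 4, it was 1.00, 0.923, 0.969 and 1.19 CPM in LC replicates 1 to 4, and it was 1.42, 2.33 and 3.14 CPM in RF replicates 1 to 3. The LC libraries were all low, the RF libraries were all above them, and in AL a single library, replicate 3, was as high as the top of RF. These levels rest on 15 to 47 counts a library. Arntl was 2.25-fold higher at RF than at LC (log2 1.17, SE 0.39, adjusted p = 0.048 in edgeR's quasi-likelihood test), and this call held in 10 of the 21 alternative settings. It was lost with library totals (log2 0.96, adjusted p = 0.075), with voom (0.053), with the FPKM fits at pseudocounts 1 and 0.1 (0.052 and 0.060), without any 1 of the 4 LC libraries (adjusted p 0.071 to 0.090), without RF replicate 2 (0.11) and without RF replicate 3 (log2 0.87, adjusted p = 0.21). At LC against AL the log2 difference of Arntl was -0.74 (SE 0.41, adjusted p = 0.18), and without AL replicate 3 it was -0.07. The RF and AL means differed by 0.42 (SE 0.41, adjusted p = 0.74).

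Clock, the partner of BMAL1, was the steadier of the pair. Its level was 21.6, 23.0 and 21.3 CPM in AL, 19.3, 16.8, 17.9 and 20.8 CPM in LC, and 18.5, 26.1 and 24.0 CPM in RF. The LC libraries lay just below the AL libraries and RF spanned both groups. None of its differences was called: the log2 value was -0.23 (SE 0.14, adjusted p = 0.22) at LC against AL, 0.06 (SE 0.15, adjusted p = 0.92) at RF against AL and 0.29 (SE 0.14, adjusted p = 0.15) at RF against LC. The sign at LC against AL turned with the scaling, to 0.08 with library totals, and with the trend on transcript length removed the value was -0.48 and was called (adjusted p = 0.029). Npas2, a relative of Clock that also pairs with BMAL1, had 5, 1 and 3 counts in the AL libraries, 3, 2, 4 and 1 in LC and 4, 2 and 1 in RF. No difference in Npas2 was detectable at this depth.

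Per1 encodes the PER protein best known for its fast response to hormonal signals. Its level was 106, 84.0 and 73.9 CPM in AL, 175, 154, 159 and 163 CPM in LC, and 46.1, 108 and 114 CPM in RF. The LC libraries were close together and above every other library, and RF replicate 1 was the lowest of all 10. Per1 rose 1.85-fold at LC against AL (log2 0.89, SE 0.26, adjusted p = 0.022) and fell at RF against LC to 0.548 of the LC level (log2 -0.87, SE 0.26, adjusted p = 0.032). The rise was called in 17 of 21 alternatives and was lost without AL replicate 3 (adjusted p = 0.086), AL replicate 4 (0.095) or LC replicate 1 (0.053) and with the length trend removed (0.052). The fall was called in 16 of 21 and was lost without any 1 of the LC libraries (0.051 to 0.073) and with the compared groups alone (0.050). Without RF replicate 1 the fall was -0.56 on the log2 scale (adjusted p = 0.038). Between RF and AL the difference was 0.02 (SE 0.27, adjusted p = 0.99).

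Per2 encodes a PER protein that carries feeding and temperature signals to the clock in liver. Its level was 92.3, 82.8 and 82.6 CPM in AL, 127, 146, 122 and 152 CPM in LC, and 122, 141 and 125 CPM in RF. The LC and RF libraries shared 1 range and both lay above all AL libraries. Per2 rose 1.59-fold at LC against AL (log2 0.67, SE 0.13, adjusted p = 0.0019), a call that held in all 21 alternatives. The difference between RF and LC was -0.08 (SE 0.12, adjusted p = 0.67). Against AL the RF libraries differed by 0.59 on the log2 scale (SE 0.13), and edgeR's adjusted p of 0.16 did not pass, with an unadjusted p of 0.00054. In that comparison 0.0547% of all genes tested were called (0.0156% higher and 0.0391% lower, 7 genes in all), and 10.8% had an unadjusted p below 0.05. DESeq2 called the same difference (0.57, adjusted p = 0.0098), as did limma voom with sample weights (0.61, adjusted p = 0.032).

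Per3, whose protein is regarded as a lesser part of the loop but is strongly rhythmic in liver, had 54.6, 58.3 and 61.2 CPM in AL, 114, 119.9, 91.7 and 93.0 CPM in LC, and 101, 64.3 and 64.0 CPM in RF. All LC libraries stood above AL, and RF was divided, with replicate 1 inside the LC range and the other 2 just above AL. Per3 rose 1.80-fold at LC against AL (log2 0.85, SE 0.17, adjusted p = 0.0030), and this call held in all 21 alternatives. At RF against LC the difference was -0.45 (SE 0.17, adjusted p = 0.071), which did not pass. It was called with library totals (-0.66, adjusted p = 0.013), with voom (-0.49, adjusted p = 0.035), with both FPKM fits (-0.64 and -0.67, adjusted p = 0.013 in each) and without RF replicate 1 (-0.71, adjusted p = 0.012). Against AL the difference of the RF libraries was 0.40 (SE 0.18, adjusted p = 0.45), and 0.14 without RF replicate 1.

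Cry1 and Cry2 encode the cryptochromes, the stronger repressors of the BMAL1 pair. Cry1 had 5.12, 10.8 and 11.5 CPM in AL, 5.15, 7.63, 7.16 and 12.5 CPM in LC, and 8.18, 8.19 and 19.2 CPM in RF. Cry2 had 52.1, 53.7 and 42.3 CPM in AL, 46.1, 66.8, 58.0 and 53.2 CPM in LC, and 32.5, 56.5 and 47.4 CPM in RF. For both genes the 3 groups overlapped, and the single highest Cry1 library, RF replicate 3, and the single lowest Cry2 library, RF replicate 1, belonged to the same group. Neither passed in the 3 comparisons in the main edgeR fit, with TMM scaling and 1 mean per group. With a replicate block added to that fit, both were called at RF against LC. For Cry1 the log2 differences were -0.17 (SE 0.41) at LC against AL, 0.38 (SE 0.43) at RF against AL and 0.55 (SE 0.40) at RF against LC, with adjusted p of 0.78, 0.79 and 0.35, and the first turned to 0.14 with library totals. For Cry2 they were 0.18 (SE 0.18), -0.12 (SE 0.19) and -0.30 (SE 0.18), with adjusted p of 0.46, 0.86 and 0.25. Cry2 was called at LC against AL with library totals (0.50, adjusted p = 0.041) and with both FPKM fits (0.47 and 0.50, adjusted p = 0.048 in each), and at RF against LC with both FPKM fits (-0.51 and -0.55, adjusted p = 0.046 in each).

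**Figure D2:**
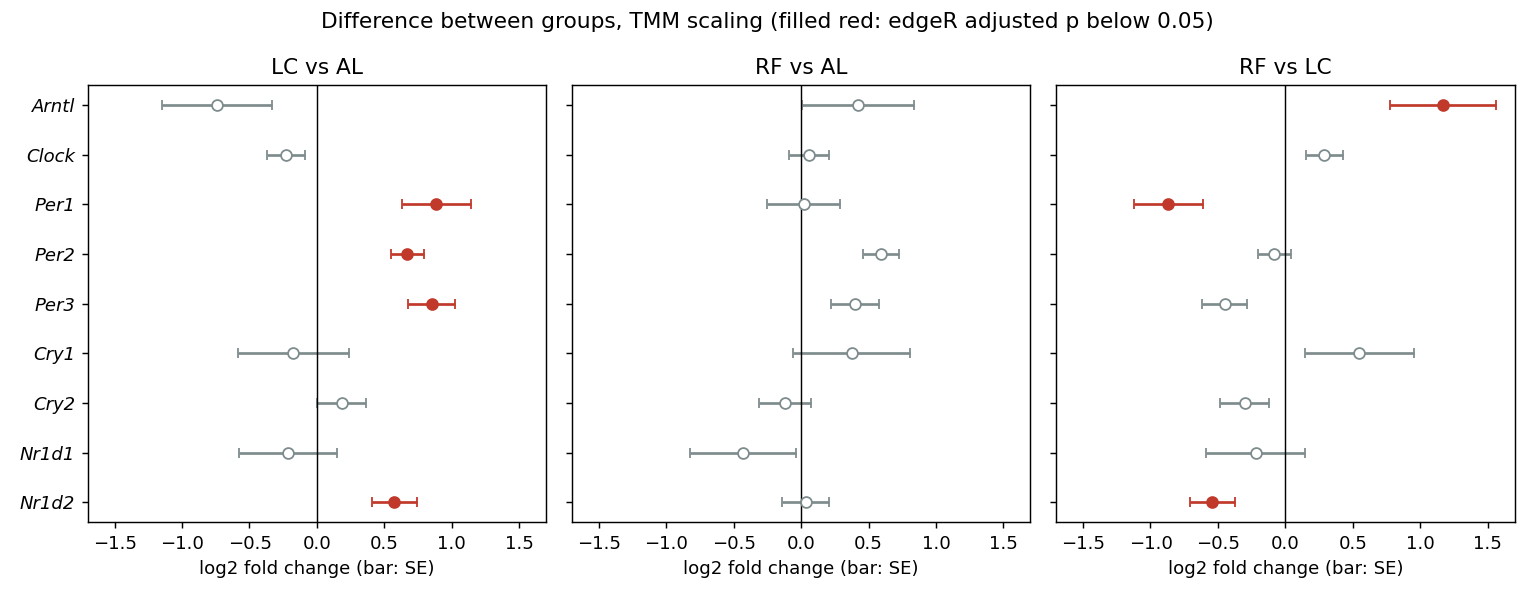
Log2 fold change of the 9 tested genes (horizontal axis, bars are SE) at LC against AL, RF against AL and RF against LC, with called genes filled in red. Per1, Per2, Per3 and Nr1d2 lie right of 0 at LC against AL, no gene is filled at RF against AL, and Arntl lies right and Per1 and Nr1d2 left of 0 at RF against LC.

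Of the REV-ERB genes, Nr1d2 was called and Nr1d1 was not, and the difference between the 2 was not tested. Nr1d2, which encodes REV-ERB beta, had 149, 126 and 99.0 CPM in AL, 220.5, 167, 179 and 177 CPM in LC, and 149, 107 and 128 CPM in RF. Every LC library stood above every AL and RF library, and LC replicate 1 was the highest. Nr1d2 rose 1.49-fold at LC against AL (log2 0.57, SE 0.17, adjusted p = 0.018) and was at 0.688 of the LC level at RF (log2 -0.54, SE 0.17, adjusted p = 0.032), and the RF and AL means differed by 0.03 (SE 0.18, adjusted p = 0.96). Each of the 2 calls held in 17 of 21 alternatives. The rise was lost without AL replicate 3 (adjusted p = 0.063), AL replicate 4 (0.095) or LC replicate 1 (0.051) and with the length trend removed (0.072), and the fall without LC replicate 1 (0.085), RF replicate 2 (0.15) or RF replicate 3 (0.0887) and with the length trend removed (0.051).

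Nr1d1, which encodes REV-ERB alpha, had 105, 58.0 and 47.9 CPM in AL, 90.6, 42.8, 67.9 and 41.4 CPM in LC, and 67.3, 35.2 and 53.9 CPM in RF. Each group was spread widely, with replicate 2 the highest in AL and replicate 1 the highest in LC and RF, and the groups overlapped throughout. The log2 differences were -0.21 (SE 0.36, adjusted p = 0.69) at LC against AL, -0.43 (SE 0.39, adjusted p = 0.72) at RF against AL and -0.22 (SE 0.37, adjusted p = 0.71) at RF against LC, and the first turned to 0.10 with library totals. Exons of Nr1d1 overlap those of Thra, the thyroid hormone receptor alpha gene, on the opposite strand in the GENCODE vM21 annotation, and the libraries did not keep strand, so reads of the 2 genes cannot be told apart where they overlap. In 9 of the 10 libraries the estimated count of Nr1d1 was not a whole number. Thra stood at 19.9, 10.4 and 11.0 CPM in AL and reached 26.4 CPM in LC replicate 1, and its log2 difference at LC against AL was 0.29 (SE 0.30, adjusted p = 0.48). None of the other 9 genes had such an overlap with a gene of the count table, and genes outside that table were not searched.

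From day 3 to day 7 of the cycle, 3 of the 9 tested genes were called: Arntl rose and Per1 and Nr1d2 fell, as given above, where 22.1% of all genes tested were called (11.4% higher and 10.7% lower). The count of 3 was 0 without LC replicate 1, 1 without any 1 of the other LC libraries or without RF replicate 2 or 3, and 4 without RF replicate 1. The same 3 genes were those whose RF and LC libraries did not overlap, against 17.7% of all genes higher and 16.5% lower at RF. The median log2 difference of the 9 genes was -0.22, beside -0.015 over all genes. At RF against AL none of the 9 passed edgeR's adjusted threshold, beside 0.0547% of all genes tested. Per2 and Per3 had an unadjusted p below 0.05, beside 10.8% of all genes, and DESeq2 and voom each called 1 (Per2). Per2 and Per3 were also the genes whose RF libraries all lay above AL, against 9.38% of all genes higher and 9.56% lower. The median of the 9 was 0.059 there, beside 0.0093 over all genes. Each pair of comparisons shares the libraries of 1 group, so the values stand side by side and are not separate evidence.

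Between genes, levels were set side by side with the deposited FPKM, which are scaled by transcript length. In AL the order was Nr1d2 (25.9 ± 6.14, SD, n = 3), Nr1d1 (25.4 ± 12.3), Per1 (17.8 ± 4.27), Per2 (14.5 ± 1.89), Cry2 (12.4 ± 1.58), Per3 (9.05 ± 0.670), Cry1 (2.93 ± 1.06), Clock (2.10 ± 0.0833), Arntl (0.623 ± 0.372) and Npas2 (0.0567 ± 0.0404 FPKM). Each step from Nr1d2 down to Per2, and that from Cry1 to Clock, was smaller than the larger SD of the 2 neighbours, and the other steps were larger. The 6 repressor genes Nr1d2, Nr1d1, Per1, Per2, Cry2 and Per3 stood well above Cry1 and the activators. In LC the order was led by Nr1d2 (47.9 ± 7.67, n = 4), Per1 (40.9 ± 3.69), Per2 (28.8 ± 1.76) and Nr1d1 (27.2 ± 11.4 FPKM), where the step from Per1 to Per2 alone was larger than the SDs. In RF it was led by Nr1d2 (28.4 ± 4.56, n = 3), Per2 (23.3 ± 1.95), Nr1d1 (20.1 ± 6.16) and Per1 (19.3 ± 8.12 FPKM), of which the last 3 lay within the SD of Per1. Cry1, Clock, Arntl and Npas2 filled ranks 7 to 10 in each group. FPKM values are not TMM-scaled, so a fold between groups read from them is larger at LC than the tested one.

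**Figure D3:**
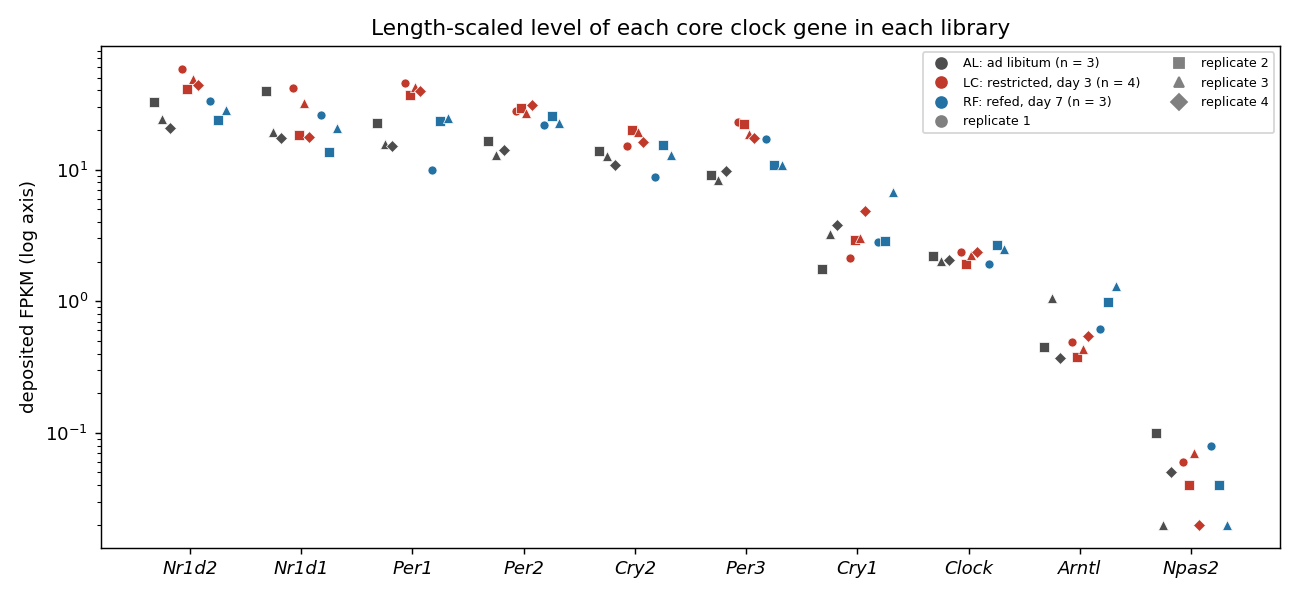
Deposited FPKM of each core clock gene (vertical log axis) in each library, with genes in the order of their AL mean and groups by colour. The repressor genes from Nr1d2 to Per3 lie above the others, and Arntl stays near or below 1.5 FPKM in every library.

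The spread within groups differed from gene to gene. The within-group SD of the log2 level was 0.61 for Cry1, 0.54 for Nr1d1, 0.53 for Arntl and 0.42 for Per1, beside a median of 0.24 over all genes tested. It was 0.28 for Cry2, 0.25 for Per3, 0.23 for Nr1d2, 0.17 for Clock and 0.13 for Per2. Per2 had the smallest spread of the 9 and Cry1 the largest. From the lowest to the highest of the 10 libraries, Per1 spanned 3.80-fold, Cry1 3.75-fold, Arntl 3.41-fold, Nr1d1 2.98-fold and Clock 1.55-fold.

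Ratios between 2 clock genes of 1 library do not depend on how libraries are scaled. The log2 ratio of Per1 to Arntl counts was 6.58, 4.79 and 6.16 in AL, 7.44, 7.38, 7.36 and 7.10 in LC, and 5.02, 5.54 and 5.18 in RF. The LC libraries were the highest, and AL replicate 3 lay below every RF library. The ratio of Nr1d2 to Arntl was also highest in LC, from 7.21 to 7.78. It overlapped between AL, from 5.37 to 7.07, and RF, from 5.34 to 6.71. All ratios to Arntl share its 15 to 47 counts a library. The ratio of Per2 to Clock was 2.10, 1.85 and 1.95 in AL, 2.72, 3.12, 2.76 and 2.87 in LC, and 2.72, 2.43 and 2.38 in RF, so that all 3 RF libraries stood above AL. The ratio of Per1 to Clock instead lay at 1.79 to 2.30 in AL, 2.97 to 3.19 in LC and 1.32 to 2.24 in RF. Within the REV-ERB pair, Nr1d1 to Nr1d2 was -0.51, -1.12 and -1.05 in AL, -1.28, -1.96, -1.40 and -2.09 in LC, and -1.14, -1.60 and -1.25 in RF. Nr1d1 was thus lower against Nr1d2 in every LC and RF library than in any AL library. These ratios are descriptions, with no test.

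**Figure D4:**
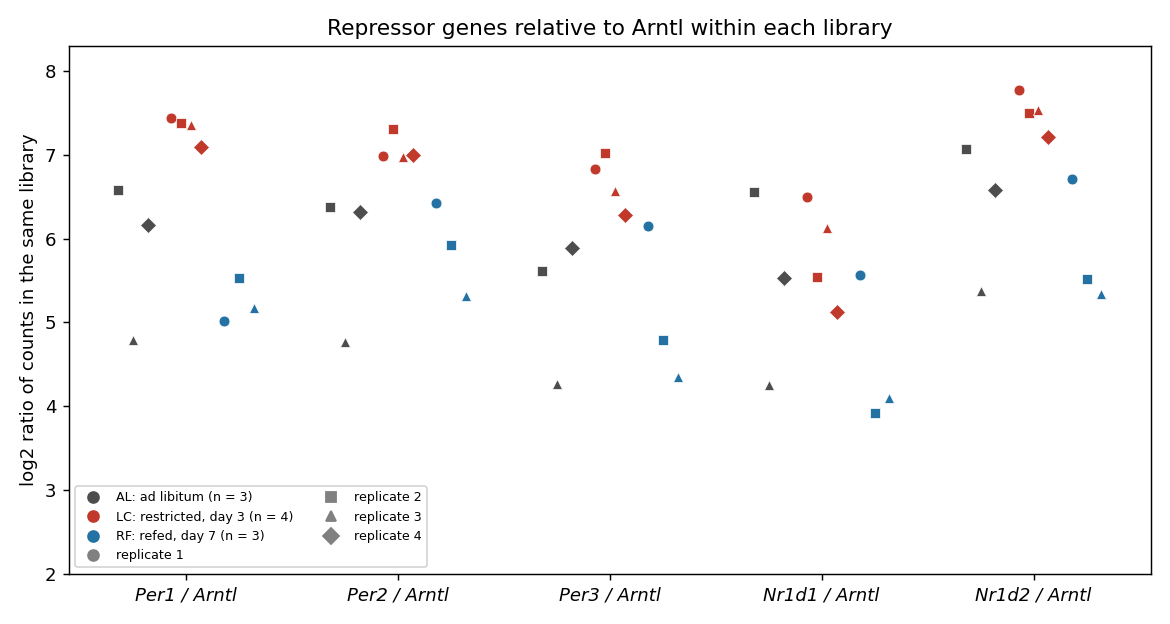
Log2 ratio of the counts of each of 5 repressor genes to those of Arntl in the same library (vertical axis), by group and replicate. The LC libraries are the highest for Per1, Per2, Per3 and Nr1d2, AL replicate 3 lies far below the other AL libraries, and the ratio of Nr1d1 to Arntl overlaps between groups.

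The clock's accessory regulators include the BHLHE repressors and the PAR-bZIP factors that act on D-boxes. Of 20 tested, 4 rose and none fell at LC against AL (median log2 0.15), and 2 fell at RF against LC (median -0.21). That is 20% and 10% of the list, both below the 31.5% and 22.1% of all genes called in these comparisons. Tef, which encodes a PAR-bZIP activator, had 373, 286 and 292 CPM in AL, 745, 653, 601 and 569 CPM in LC, and 386, 261 and 312 CPM in RF. Every LC library of Tef stood above all others. It rose at LC against AL (log2 1.02, SE 0.17, adjusted p = 0.00090) and fell at RF against LC (log2 -1.01, SE 0.17, adjusted p = 0.0018). Its relatives were not called. Dbp had 228, 223 and 235 CPM in AL, 250.3, 208, 253 and 199 CPM in LC, and 231, 163 and 146 CPM in RF, with -0.01 at LC against AL (adjusted p = 0.98, and 0.31 with library totals), and Hlf had -0.17 (adjusted p = 0.37, and 0.16 with library totals). Sirt1, a deacetylase that acts on the clock proteins, rose at LC (log2 1.04, adjusted p = 0.011), led by LC replicate 1 at 39.2 CPM, with the other LC libraries at 18.0 to 21.5 and AL at 12.1 to 12.4 CPM. The splicing factor gene Sfpq (0.50, adjusted p = 0.025) and the demethylase gene Kdm5a (0.50, adjusted p = 0.024) were the other 2 that rose. Ciart (0.60, adjusted p = 0.19), Bhlhe41 (0.38, adjusted p = 0.39), Bhlhe40 (0.17, adjusted p = 0.63), Rora (-0.19, adjusted p = 0.41, and 0.13 with library totals) and Nfil3 (-0.40, adjusted p = 0.57) did not pass at LC against AL. Ciart was called with library totals (0.92, adjusted p = 0.046) and with both FPKM fits (0.98 and 1.02), and was 0.27 without AL replicate 4.

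Kinases, phosphatases, ubiquitin ligases and proteases set the lifetime of clock proteins. Of 18 tested, 3 rose and 3 fell at LC against AL (median 0.03), and 2 rose and 3 fell at RF against LC (median -0.08). These shares, 33.3% and 27.8%, are near the 31.5% and 22.1% of all genes called. The risers at LC were the deubiquitinase genes Usp2 (0.53, adjusted p = 0.022) and Usp7 (0.46, adjusted p = 0.0072) and Csnk1e, which encodes casein kinase 1 epsilon, a kinase of PER proteins (0.52, adjusted p = 0.028). Skp1, a subunit of the SCF ubiquitin ligases, fell at LC (-0.78, adjusted p = 0.0013) and was higher at RF than at LC (0.46, adjusted p = 0.026, but 0.26 and not called with library totals, adjusted p = 0.13). Prkaa2, the AMPK subunit alpha 2, fell at LC (-0.41, adjusted p = 0.025, and -0.09 with library totals, no longer called) and rose at RF against LC (0.81, adjusted p = 0.0014). At RF against LC, Usp2 (-0.72, adjusted p = 0.0077), Usp7 (-0.35, adjusted p = 0.033) and Fbxw7, a ubiquitin ligase subunit (-0.54, adjusted p = 0.022), fell.

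Genes listed as rhythmic outputs with E-boxes or D-boxes numbered 20 tested, and these elements were not checked gene by gene. Of the 20, 3 rose and 2 fell at LC against AL (median 0.11), and 1 rose and 4 fell at RF against LC (median -0.19). The called share was 25% in each, beside 31.5% and 22.1% of all genes. Besides Tef and Usp2, Nampt, the rate-limiting enzyme of NAD salvage, rose at LC (0.39, adjusted p = 0.015) and fell at RF against LC (-0.42, adjusted p = 0.016). Cdkn1a, a cell cycle inhibitor, fell at LC (-1.87, SE 0.42, adjusted p = 0.0063), as did Leo1, a subunit of the PAF1 complex (-1.01, adjusted p = 0.0014), which rose at RF against LC (0.87, adjusted p = 0.0050). Gys2, the liver glycogen synthase, fell at RF against LC (-0.75, adjusted p = 0.016).

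Genes that REV-ERB proteins are known to repress numbered 9 tested, among them Arntl, Clock and Cry1. At LC against AL 3 fell and none rose (median -0.40), and at RF against LC 3 rose and none fell (median 0.55). The 3 of 9 (33.3%) stand beside 31.5% of all genes called at LC against AL (15.6% lower) and 22.1% at RF against LC (11.4% higher). Insig2, which holds back SREBP processing, had 239, 256 and 102 CPM in AL, 38.6, 80.3, 53.2 and 40.2 CPM in LC, and 97.5, 164 and 181 CPM in RF. All LC libraries lay below all others. It fell at LC against AL (log2 -1.90, SE 0.38, adjusted p = 0.0054) and rose at RF against LC (1.47, SE 0.37, adjusted p = 0.022). Elovl3, a fatty acid elongase with a strong daily rhythm in liver, fell at LC (-1.41, SE 0.30, adjusted p = 0.0056) and rose at RF against LC (1.29, SE 0.29, adjusted p = 0.013), and Cyp8b1, the sterol 12-alpha-hydroxylase of bile acid synthesis, fell at LC (-1.23, SE 0.33, adjusted p = 0.019). The third gene that rose at RF against LC was Arntl. Insig2, Elovl3 and Cyp8b1 also answer to other feeding signals, and no value here separates those from REV-ERB.

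**Figure D5:**
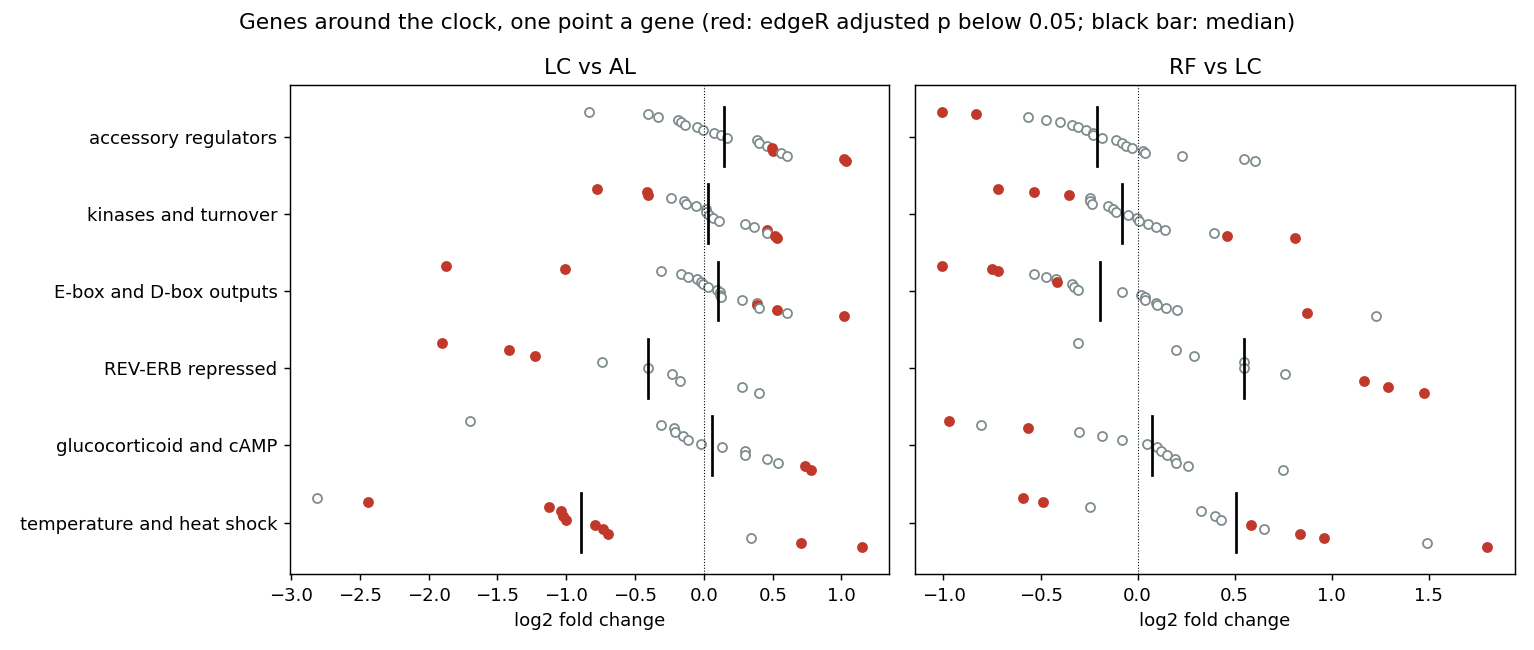
Log2 fold change (horizontal axis) of each tested gene in 6 groups of genes around the clock, at LC against AL and at RF against LC, with called genes in red and the group's median as a black bar. The genes known as repressed by REV-ERB and the heat shock genes lie mostly left of 0 at LC against AL and right of 0 at RF against LC.

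Signals from the body reach the liver clock through glucocorticoids and cAMP and through temperature. Of 14 genes tested for the first, 2 rose and none fell at LC against AL (median 0.06), and 2 fell at RF against LC (median 0.08). Both are 14.3% of the list, below the 31.5% and 22.1% of all genes called. These were Sgk1, a glucocorticoid-induced kinase (0.73, adjusted p = 0.0080, then -0.57, adjusted p = 0.036), and Crtc2, a CREB coactivator (0.78, adjusted p = 0.0037, then -0.97, adjusted p = 0.0020). Of 12 temperature and heat shock genes, 2 rose and 8 fell at LC against AL (median -0.90), and 4 rose and 2 fell at RF against LC (median 0.51). That is 83.3% and 50.0% of the list, beside 31.5% and 22.1% of all genes. Rbm3 and Cirbp, RNA-binding proteins induced by cold, were the 2 that rose. Rbm3 had 47.6, 45.8 and 44.6 CPM in AL, 107, 110.4, 90.5 and 101 CPM in LC, and 61.9, 69.6 and 71.9 CPM in RF. The 3 groups did not overlap, with RF between the others. The log2 difference of Rbm3 was 1.15 at LC against AL (SE 0.12, adjusted p = 0.00014) and -0.59 at RF against LC (SE 0.12, adjusted p = 0.0041), and that of Cirbp was 0.71 at LC against AL (SE 0.15, adjusted p = 0.0037). The chaperone genes Hspb1 (-1.12, adjusted p = 0.0029) and Hsp90aa1 (-1.04, adjusted p = 0.0010) were among those that fell. Hsp90aa1 (0.84, adjusted p = 0.0050), Serpinh1, a collagen chaperone (0.96, adjusted p = 0.0067), Dnaja1 (0.59, adjusted p = 0.014) and Hspa1b (1.80, adjusted p = 0.030) rose at RF against LC.

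In none of these 6 groups was a gene called by edgeR at RF against AL, beside 0.0547% of all genes tested. There 7 of their 83 genes had an unadjusted p below 0.05, beside 10.8% of all genes. DESeq2 and voom each called 1, in the temperature and heat shock group. Over all genes, DESeq2 called 40 higher and 60 lower at RF against AL, and voom called 20 higher and 30 lower. With library totals the median turned to -0.14 for the glucocorticoid and cAMP group at RF against LC, and no other median of these groups changed sign at LC against AL or RF against LC under that scaling. Of the 21 group genes named as called at LC against AL, 12 were called in all 21 alternatives, and of 19 at RF against LC, 9 were. Lost at LC against AL without 1 library were Sirt1 and Nampt (AL replicate 3), Sfpq (AL replicates 3 and 4, LC replicates 1 and 3), Kdm5a (AL replicates 3 and 4, LC replicate 3), Usp2 (AL replicates 2 and 3, LC replicates 1 and 4), Csnk1e (AL replicates 3 and 4, LC replicates 1 and 3), Prkaa2 (AL replicates 3 and 4, LC replicates 1 and 2) and Cyp8b1 (AL replicates 3 and 4, LC replicate 1), with adjusted p up to 0.13, while Sfpq, Kdm5a, Usp2, Usp7, Csnk1e and Nampt were lost with the length trend removed. Lost at RF against LC without 1 library, with adjusted p up to 0.14, were Sirt1 (any AL library, LC replicate 1, RF replicates 2 and 3), Usp7 and Skp1 (LC replicates 1 and 4, any RF library), Fbxw7 (LC replicate 4, RF replicates 1 and 2), Nampt (RF replicates 2 and 3), Gys2 (RF replicates 1 and 3), Insig2 (LC replicates 1 and 4, RF replicates 2 and 3), Sgk1 (LC replicates 1 to 3, any RF library), Dnaja1 (RF replicate 3) and Hspa1b (LC replicates 1, 2 and 4, RF replicates 1 and 3). Without LC replicate 1 the log2 difference of Sirt1 at RF against LC was -0.53 in place of -0.83. The lists were written from known roles, with earlier results of these data in view.

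The livers were bulk tissue, in which fewer cells of a type and less RNA per cell cannot be told apart. Of 11 hepatocyte markers tested, 7 fell at LC against AL and 5 rose at RF against LC (15.6% of all genes fell in the first and 11.4% rose in the second), and their summed level was 96656 to 117360 CPM in AL, 67327 to 77853 in LC and 89819 to 96971 in RF. Of 10 sinusoidal endothelial markers, 4 (Stab1, Stab2, Kdr and Oit3) rose at LC, beside 16% of all genes, with sums of 256 to 278 CPM in AL, 379 to 399 in LC and 351 to 411 in RF. Sums of 10 Kupffer cell markers (136 to 200.3, 116 to 201 and 155 to 210.1 CPM) and of 10 stellate cell markers (304 to 312, 239.9 to 323 and 357 to 402 CPM in AL, LC and RF) had 2 and 1 members that fell at LC. At RF against LC, 2 Kupffer cell, 4 stellate cell and 1 erythroid markers rose and none fell. Of the endothelial markers, 2 rose and 2 fell there. Of all genes, 11.4% rose and 10.7% fell in that comparison. For the 4 types that follow, the sums also take in markers too low to be tested. Of 6 cholangiocyte markers tested 1 rose (sums of 7: 57.4 to 97.9, 77.7 to 98.3 and 80.3 to 126 CPM). Of 7 lymphocyte markers tested 0 rose (sums of 9: 12.8 to 18.8, 16.2 to 23.8 and 19.9 to 22.4 CPM). Of 5 erythroid markers tested 2 fell (sums of 6: 473 to 716, 274 to 407 and 325 to 1029 CPM). The 2 adipocyte markers tested both fell (sums of 5: 93.6 to 187, 6.41 to 28.3 and 10.7 to 17.8 CPM). No marker was at 0 in all libraries. Their part in the clock results was not tested.

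The genes whose pattern over the 10 libraries was most like that of a clock gene were ranked by the root mean square difference of log2 CPM, centred on each gene's mean, over the 9497 tested genes that averaged 5 CPM or more. For Per2 they were Sel1l3 (0.094), Fam167b (0.097), Dhx30 (0.11), Masp1 (0.12) and Ptprb (0.12). For Arntl, whose own SD over the libraries was 0.64, they were Rraga (0.31), Trp53inp2 (0.34), Dnajb9 (0.34), Sh3pxd2a (0.34) and Ntn1 (0.35). For Nr1d1 they were Fam214b (0.23), Abca8b (0.25), Ing4 (0.26), B3gat3 (0.27) and Hamp (0.27). The points share their libraries, so likeness here is a description.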

How the data were processed

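Poly(A)-enriched liver RNA was sequenced as 10 libraries without strand on the BGI DNBSEQ platform, with RNA integrity numbers of 6.6 to 8.5, per the labels. The authors deposited 2 units per library: expected counts, estimated by a model and often fractional (10.9% of values were not whole), and FPKM, scaled by transcript length and depth. The aligners HISAT and Bowtie2 and the mouse build GRCm39 come from the submitters' processing notes. The sources used here name no counting program or annotation. Counts were rounded, filtered with filterByExpr (12789 of 17359 genes left), scaled by TMM and fitted to all 10 libraries with 1 mean per group in edgeR 4.0.16 (R 4.3.3, glmQLFit, robust). Its quasi-likelihood F test gave the p-values of the 3 comparisons, Benjamini-Hochberg adjusted over all genes tested, at 0.05. SE is the size of the log2 fold change divided by the root of F. The steps were tested on simulated data.

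All 10 core clock genes are named with all values, as are accessory genes of a set list (1 is not reported here), and up to 5 genes with the smallest p from each list around the clock. The members and lists were chosen with earlier results of these data known. The 21 alternatives were DESeq2 1.42.0, limma 3.58.1 voom with sample weights, other scalings and filters, FPKM on a log2 scale with a pseudocount of 1 or 0.1, the compared groups alone, a length trend removed, a replicate block, and each library left out in turn. Promoter windows came from RefSeq tables on GRCm38.p6 and were not joined to the files' coordinates. Library totals were 13871533 to 15899479 counts.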

Additional observations from a re-analysis of the deposited data

How the results depend on the processing

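Under the 21 alternatives, the count of called core clock genes at LC against AL (4) was 5 with library totals and both FPKM fits, where Cry2 was added, and 3 with the length trend removed. Without 1 library it ranged from 2 to 4, and the lowest count came without LC replicate 1 and without AL replicate 3 or 4. At RF against AL the count was 0 except with DESeq2 (1) and voom (1), and at RF against LC (3) it ranged from 0 to 4 without 1 library. Over all genes, leaving out 1 library gave 2110 to 4353 called genes at LC against AL, 1 to 13 at RF against AL and 1435 to 3141 at RF against LC. At RF against AL the count of all genes was 100 with DESeq2, 50 with voom, 13 with no filter, 1 with either FPKM fit and 1 with the length trend removed.

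Same-numbered libraries did not deviate together throughout: their correlations were 0.016, -0.046 and 0.065 between AL and LC, -0.040 and 0.014 between AL and RF, and 0.25, 0.18 and 0.049 between LC and RF. Different-numbered pairs of LC and RF ran from -0.21 to 0.12. RF replicate 3 correlated better with LC replicate 4, the highest of these pairs, than with LC replicate 3. A fit with the replicate block called 4 core clock genes and 3858 genes at LC against AL, 0 and 5 at RF against AL, and 5 and 3230 at RF against LC, where it added Per3, Cry1 (0.72, adjusted p = 0.040) and Cry2 (-0.35, adjusted p = 0.046) and lost Arntl.

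Of 1575 values of single genes, 1397 kept direction and call, 116 lost the call, 19 gained it and 43 turned sign, none of these with an adjusted p below 0.05. At LC against AL the turned values were, with library totals and the FPKM fits at pseudocounts 1 and 0.1, 0.085, 0.057 and 0.079 for Clock, 0.14, 0.11 and 0.14 for Cry1, 0.10, 0.10 and 0.11 for Nr1d1, 0.31, 0.28 and 0.28 for Dbp, 0.16, 0.14 and 0.15 for Hlf, and 0.13, 0.13 and 0.15 for Rora. Cry1 was 0.054 with the block, Nr1d1 0.00036 with voom and Dbp 0.12 with the length trend removed. Without 1 library Cry1 ranged from -0.46 to 0.030, Nr1d1 from -0.47 to 0.20, Dbp from -0.060 to 0.053 and Bhlhe40 from -0.047 to 0.37. At RF against AL, with the length trend removed, Clock was -0.097, Per1 -0.081 and Nr1d2 -0.063. There Per1 was -0.00063 with DESeq2 and -0.00046 with size factors by relative log expression, and Nr1d2 was -0.14 with the block. Without 1 library Clock ranged from -0.047 to 0.19, Cry1 from -0.18 to 0.58, Cry2 from -0.30 to 0.073, Per1 from -0.21 to 0.33 and Nr1d2 from -0.11 to 0.18. At RF against LC Nr1d1 ranged from -0.45 to 0.037. The cause was not tested. Depth limits Arntl and Npas2 most.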
